A study of Homo sapiens with 8 samples.

Results

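A set of 9 long noncoding RNA genes was followed across 8 libraries of a human brain endothelial cell line: MALAT1, NEAT1, KCNQ1OT1 and TUG1, which give long and mostly nuclear transcripts, MEG3 and H19, which are imprinted, and GAS5, SNHG1 and SNHG5, which are short spliced transcripts that carry small nucleolar RNAs (snoRNAs) in their introns. They were chosen by gene symbol, with their values in these libraries already known, and all 9 of the 9 symbols were found among the 23346 genes of the table. Every value below is therefore a description without a test. The cells were hCMEC/D3, endothelial cells of human brain microvessels that were immortalised and serve to model the blood-brain barrier in culture, with no treatment named in the labels. The 8 libraries of polyadenylated RNA formed 1 group of replicates, and the labels do not say whether these were separate cultures or repeat preparations, so the spread between them may be technical. The series was made as a transcriptome resource for this line.

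Long noncoding RNAs act without being translated, and where they stay in the cell is tied to what they do. MALAT1 gathers in nuclear speckles, bodies that store splicing factors, and NEAT1 is the scaffold on which paraspeckles form. KCNQ1OT1 is transcribed antisense to KCNQ1 from the paternal chromosome and silences neighbouring genes in cis. The snoRNA host genes work differently: their introns are trimmed to box C/D snoRNAs, which guide methylation of ribosomal RNA, while the spliced host RNA reaches the cytoplasm, where ribosomes and nonsense-mediated decay act on it.

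Total counts were 69388544 to 90205244 per library, and none of the 186768 single values was odd, which makes 2 counts the smallest difference. The level in CPM (counts scaled to a common library size) reached at least 1 in all 8 libraries for 11980 genes, 51.3% of those listed; such genes are called detected. All 10 endothelial markers examined were detected, with a summed level of 3289 to 5572 CPM. By contrast 0 of 5 astrocyte and 0 of 5 microglial markers were, at summed levels of 0.820 to 1.17 and 0.213 to 1.32 CPM, with 1 of 6 neuronal markers (3.24 to 7.84 CPM summed) and 4 of 6 mural cell markers (45.3 to 70.2 CPM). Replicates 2, 7 and 8 stood apart from the other 5 in how level went with transcript length. For each doubling of length, the detected genes other than the members deviated from their own means by a slope of −0.200, −0.103 and −0.309 (log2) in replicates 2, 7 and 8. The slope lay between 0.076 and 0.136 in the other libraries. Member ranges of 2-fold or more, and counts of listed genes ranging so far, are therefore given with and without those 3 libraries. They are also given on the authors' CQN scale, a log2 scale from conditional quantile normalisation. This method corrects libraries for the length and GC content of genes.

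All 9 members were detected. MALAT1 was the 17th most counted of the detected genes, NEAT1 and TUG1 had means of 245 and 202 CPM, the 3 host genes means of 93.2 to 121 CPM, and KCNQ1OT1, MEG3 and H19 lay below 12 CPM in every library. MALAT1, KCNQ1OT1 and H19 differed 2-fold or more between their highest and lowest libraries, 3 of 9 members, beside 31% of all detected genes. On the CQN scale the same span was reached by MALAT1, KCNQ1OT1 and H19, beside 10.6% of detected genes. Without replicates 2, 7 and 8, 0 of the 9 members reached it, and the share of detected genes was not computed there. RNA was taken from whole cultures, so a change in the number of cells that express a gene and a change in RNA per cell cannot be told apart.

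**Figure D1:**
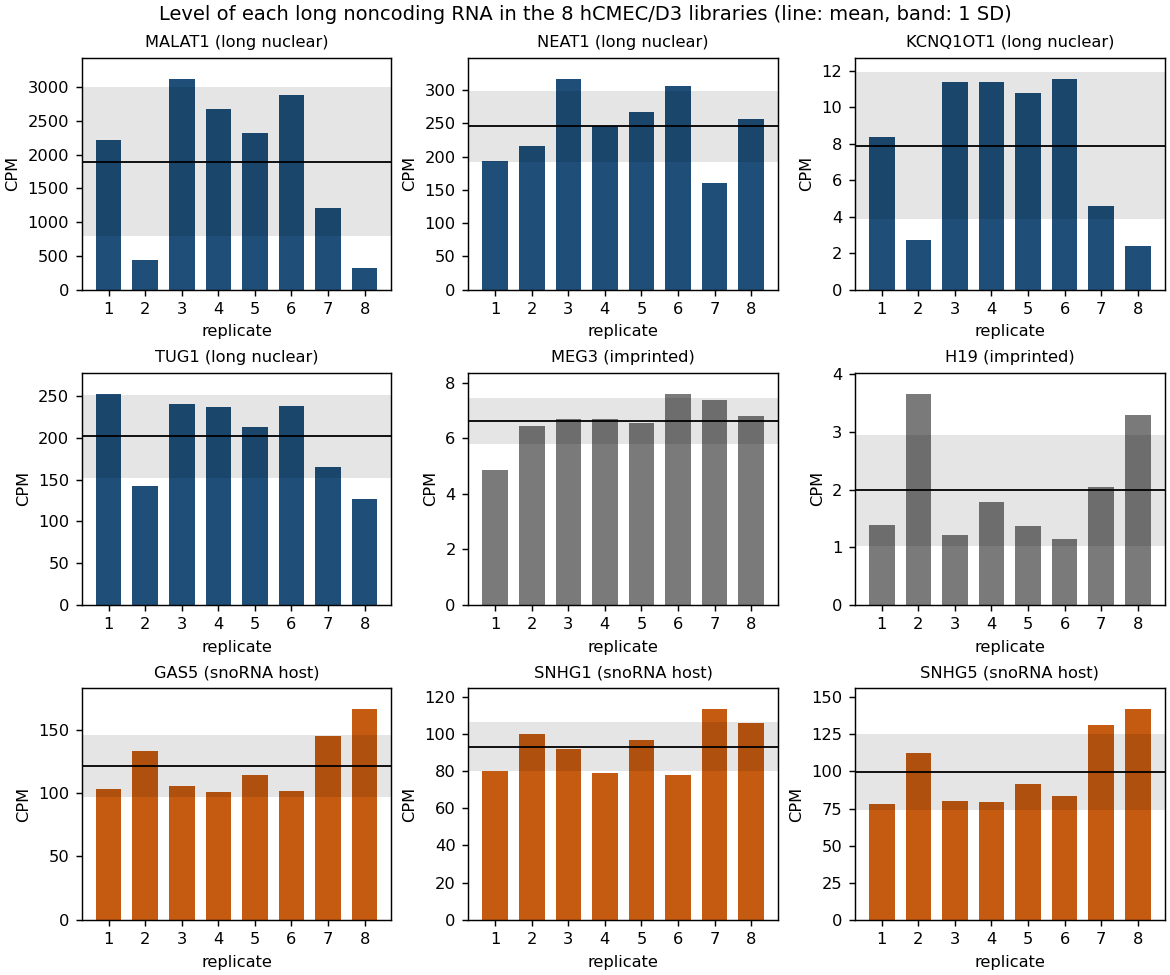
Level of each long noncoding RNA (vertical axis, CPM, each panel with its own scale from 0) in replicates 1 to 8 (horizontal axis). Bars are single libraries, the line is the mean and the grey band 1 SD. MALAT1, KCNQ1OT1 and TUG1 were lowest in replicates 2, 7 and 8, where GAS5, SNHG1 and SNHG5 were highest.

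MALAT1 lies at chr11:65265233-65273939 on the plus strand (GRCh37), a single exon of 8707 nucleotides in the deposited interval. Its 3′ end is unusual. RNase P cuts the primary transcript just upstream of a tRNA-like small RNA, and the mature end is not a poly(A) tail but an A-rich tract encoded in the genome, which folds back on T-rich stretches (U-rich in the RNA) into a triple helix. NEAT1 has the same arrangement at the end of its long form. The 2 elements are shown because these transcripts end there without a poly(A) tail, while the libraries were made from polyadenylated RNA. Capitals mark the 2 T-rich stretches and the A-rich tract, which in MALAT1 is followed by the start of the tRNA-like region.
MALAT1 element, chr11:65273495-65273617, plus strand: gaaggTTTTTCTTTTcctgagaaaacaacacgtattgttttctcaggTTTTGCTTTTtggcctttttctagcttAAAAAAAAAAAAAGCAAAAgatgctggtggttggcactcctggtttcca
NEAT1 long-form element, chr11:65212919-65213011, plus strand: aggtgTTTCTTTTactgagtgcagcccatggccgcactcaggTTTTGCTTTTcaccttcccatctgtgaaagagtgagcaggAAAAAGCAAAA
The MALAT1 tract holds a run of 13 A and ends 352 nucleotides before the deposited gene end, so counts for MALAT1 could come from both sides of the cut. Both elements share the letters TTTTGCTTTT, which were found on the transcript strand in the last 100 bases of 0.126% of the 21456 listed genes with an assigned strand. That share leaves out both elements shown, since the MALAT1 copy begins 397 nucleotides before the deposited end and the NEAT1 copy lies beyond the deposited interval.

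MALAT1 was measured at 2216, 434, 3118, 2671, 2313, 2887, 1204 and 319 CPM in replicates 1 to 8. Replicates 8 and 2 were far below the other 6, and replicate 7 lay between. The mean was 1895 ± 1099 CPM (SD, n = 8) and the highest library was 9.79-fold above the lowest. Expressed as a share of all counts, MALAT1 took 0.313% of replicate 3 and 0.0306% of replicate 8. Its SD of log2 CPM was higher than that of 99.9% of detected genes. On the CQN scale it ranged 4.00-fold, at the 99.1 percentile, with the same 2 libraries lowest, and 5.26-fold when each library's trend on length and GC content was removed from the CPM. Among replicates 1, 3, 4, 5 and 6 alone it ranged 1.41-fold. The slope on length moved with the MALAT1 level, and its part in the spread beyond these adjusted values was not tested.

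NEAT1 was counted over chr11:65190269-65194003, plus strand, the 3735 nucleotides that make up its short, polyadenylated form. The long form is annotated with 22743 nucleotides from the same start, and the A-rich tract of the element shown above begins 18998 nucleotides beyond the deposited end. The last 60 bases of the counted interval carry a poly(A) signal, AATAAA, in capitals here.
NEAT1 short-form end, chr11:65193944-65194003, plus strand: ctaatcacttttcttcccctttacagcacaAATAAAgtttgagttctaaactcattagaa
Reads of either form can fall in this interval, and the counts do not separate them. AATAAA was found in the last 100 bases of 8 of the 9 members and of 59.2% of listed genes with an assigned strand.

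NEAT1 stood at 194, 216, 316, 247, 267, 306, 160 and 256 CPM in replicates 1 to 8. Replicate 7 was lowest and replicate 3 highest, and replicates 2 and 8 lay inside the range of the others, unlike for MALAT1. The mean was 245 ± 53.4 CPM (SD, n = 8), with a 1.97-fold range on CPM and 1.98-fold on the CQN scale. Its place among all detected genes by SD moved from the 66.5 percentile on log2 CPM to the 89.6 percentile on CQN. The ratio of MALAT1 to NEAT1 CPM was 11.4 in replicate 1 and 1.24 in replicate 8, and on the CQN scale it ran from 5.11 to 1.13. On CQN, MALAT1 was above NEAT1 in all 8 libraries. These genes are neighbours on chromosome 11, yet their levels over the 8 libraries had a Pearson r of 0.32 on CPM and 0.16 on CQN, given as a description.

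KCNQ1OT1 occupies chr11:2661768-2721228 on the minus strand, an unspliced interval of 59461 nucleotides inside KCNQ1. Its level was 8.36, 2.70, 11.4, 11.4, 10.8, 11.5, 4.58 and 2.39 CPM in replicates 1 to 8. The 3 lowest libraries were 8, 2 and 7, and the other 5 did not overlap them. The mean was 7.89 ± 4.04 CPM (SD, n = 8) from 202 to 870 counts per library. The range was 4.83-fold on CPM, 2.24-fold on CQN and 1.38-fold without replicates 2, 7 and 8. KCNQ1, the potassium channel gene on the opposite strand, had only 0 to 10 counts in any library. Strand use in counting was not stated, so reads of the antisense partners may not have been separated. The last bases of the deposited interval hold no AATAAA. They carry a genomic run of 16 A instead, shown in capitals because only 0.625% of listed genes with an assigned strand had a run of 12 or more A in their last 100 bases.
KCNQ1OT1 end, chr11:2661768-2661827, minus strand: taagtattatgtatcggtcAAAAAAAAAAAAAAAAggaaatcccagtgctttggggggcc

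TUG1, first described for its need in retinal development, has 3 exons in the annotated form used here (7474 nucleotides, chr22:31365634-31375380, plus strand). It is classed as protein-coding in GENCODE 44 and as a noncoding RNA in most use. It reached 252, 142, 240, 237, 214, 238, 164 and 127 CPM in replicates 1 to 8. Replicates 8, 2 and 7 were again the lowest 3 and were clear of the rest. The mean was 202 ± 49.8 CPM (SD, n = 8) with a 1.99-fold range. On the CQN scale the range was 1.08-fold, and its SD was above that of only 2.47% of detected genes. TUG1 and MALAT1 had the same lowest 3 libraries on CPM, but replicate 1 was the highest for TUG1 and replicate 3 for MALAT1. Over the 8 libraries their Pearson r was 0.96 on CPM and −0.53 on CQN, given as a description.

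MEG3 and H19 are maternally expressed imprinted RNAs. MEG3 lies at chr14:101292445-101327360, plus strand, with 7 exons and 1608 nucleotides in the form used. It measured 4.84, 6.43, 6.71, 6.69, 6.53, 7.59, 7.38 and 6.79 CPM in replicates 1 to 8. On CPM replicate 1 stood below the other 7, which lay close together. On CQN replicate 8 was lowest (3.40), with replicates 2 (3.43) and 1 (3.45) close to it. The mean was 6.62 ± 0.825 CPM (SD, n = 8) and the range 1.57-fold on CPM and 1.66-fold on CQN. The row of MIR770, a microRNA within MEG3, had 0 to 10 counts.

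H19 (chr11:2016406-2019065, minus strand, 5 exons, 2326 nucleotides) was the lowest member on CQN. It had 1.38, 3.66, 1.21, 1.79, 1.37, 1.15, 2.05 and 3.29 CPM in replicates 1 to 8, from 82 to 330 counts. Replicates 2, 8 and 7 were the highest 3, the reverse of MALAT1. The mean was 1.99 ± 0.970 CPM (SD, n = 8) and the range 3.19-fold, or 2.06-fold on CQN. H19 ranged 1.78-fold without replicates 2 and 8, and 1.56-fold without replicates 2, 7 and 8. The row of MIR675, the microRNA made from H19, had 0 counts in every library. It lies inside an exon of the H19 form used, and how reads that overlap both genes were counted was not stated. The 0 counts therefore set no upper limit on MIR675. On CQN, MEG3 was above H19 in all 8 libraries, by 1.69 ± 0.60 (SD, n = 8).

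Of the genes next to these imprinted RNAs, 3 of 11 in the table were detected: NAP1L4 (a histone chaperone gene) at 232 ± 24.5 CPM, MRPL23 (a mitochondrial ribosomal protein gene) at 42.4 ± 18.5 CPM and PHLDA2 (a growth-restraining imprinted gene) at 19.5 ± 5.54 CPM (SD, n = 8). MRPL23 ranged 2.80-fold and PHLDA2 2.04-fold on CPM, and 1.19-fold and 1.65-fold on CQN. IGF2, the growth factor gene that shares enhancers with H19, had a mean of 0.0864 CPM. CDKN1C, a cell-cycle inhibitor gene, had a mean of 0.621 CPM. DLK1, the paternally expressed gene beside MEG3, was at 0 in all libraries but replicate 8, where it had 0.0473 CPM. Neither the parental origin of any of these RNAs nor their imprint was measured.

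GAS5, SNHG1 and SNHG5 belong to the 5′ TOP class of snoRNA host genes, whose transcripts begin with a C followed by a run of pyrimidines, as those of ribosomal proteins do. The bases around their deposited starts are shown because a run of pyrimidines near the start, shared by the 3 hosts, was not used to choose them. Each line runs from 10 bases before the start to 30 bases after it, and capitals mark the first run of 5 or more pyrimidines (C or T) that begins between 3 bases before and 12 after.
GAS5 start, chr1:173837096-173837135, minus strand: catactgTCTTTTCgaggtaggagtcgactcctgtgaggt
SNHG1 start, chr11:62623331-62623370, minus strand: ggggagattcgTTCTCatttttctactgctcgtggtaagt
SNHG5 start, chr6:86388422-86388461, minus strand: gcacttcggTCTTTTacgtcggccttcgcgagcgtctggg
Such a run was present in 4 of the 9 members: 3 of 3 hosts and MEG3, but 0 of 4 nuclear members. It was also present in 6 of 14 other snoRNA host genes and 8 of 13 coding genes known for 5′ TOP messages. It was present in 28.8% of the 21456 listed genes with an assigned strand, so a match of this kind is common. The search did not require a leading C, and each run marked above begins with T. The deposited start can lie some bases from the true first base.

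GAS5 (growth arrest-specific 5; chr1:173833039-173837125, minus strand, 12 exons, 631 nucleotides in the form used) was at 103, 133, 106, 101, 115, 101, 145 and 166 CPM in replicates 1 to 8. Replicates 8, 7 and 2 were above the other 5 without overlap. The mean was 121 ± 24.3 CPM (SD, n = 8) and the range 1.64-fold. On the CQN scale the range was 1.07-fold, and its SD exceeded that of only 0.301% of detected genes. GAS5 was thus among the steadiest detected genes on the scale that adjusts for length and GC content.

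SNHG1 (chr11:62619460-62623360, minus strand, 11 exons, 1108 nucleotides), the host of SNORD22 and SNORD25 to SNORD31, had 80.3, 100.01, 91.8, 79.2, 96.8, 78.0, 113 and 106 CPM in replicates 1 to 8. Replicates 7, 8 and 2 were again highest, although replicate 5 came close to replicate 2. The mean was 93.2 ± 13.3 CPM (SD, n = 8), with a range of 1.45-fold on CPM and 1.24-fold on CQN.

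SNHG5 (chr6:86386725-86388451, minus strand, 6 exons, 456 nucleotides), the host of SNORD50A and SNORD50B, measured 77.9, 112, 79.9, 79.3, 91.8, 83.8, 131 and 142 CPM in replicates 1 to 8. Replicates 8, 7 and 2 were the highest 3 and clear of the rest. The mean was 99.8 ± 25.5 CPM (SD, n = 8), with a range of 1.82-fold on CPM and 1.38-fold on CQN. On CQN, GAS5 stayed above SNHG5 in all 8 libraries, by 0.28 ± 0.15, and above SNHG1 by 0.38 ± 0.11 (log2, SD, n = 8). On CPM the ratio of SNHG5 to SNHG1 ran from 0.871 to 1.34 and that of GAS5 to SNHG1 from 1.15 to 1.57, highest in replicate 8. The ratio of MALAT1 to GAS5 ran from 29.4 to 1.91 on CPM and from 8.34 to 2.00 on CQN.

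Set against each other within each library, the mean log2 level of the 4 nuclear members minus that of the 3 hosts was 1.01, −0.55, 1.31, 1.26, 0.95, 1.35, −0.23 and −0.93 in replicates 1 to 8 (CPM with 0.1 added). The nuclear mean was higher in 5 libraries and lower in replicates 2, 7 and 8. Over all libraries the difference was 0.52 ± 0.93 (SD, n = 8) and spanned 2.28. On the CQN scale it was −0.15, −0.79, 0.10, 0.00, −0.03, 0.07, −0.54 and −0.76, a mean of −0.26 ± 0.37 that spanned 0.89, so the sign of the mean turned with the scale. With each library's trend on length and GC content removed from the CPM, the mean of 0.52 is kept by construction and the span was 0.84. Without replicates 2, 7 and 8 the span on CPM was 0.40. On all 3 scales replicates 2, 7 and 8 had the lowest 3 values. On CQN the 4 nuclear members did not move together. In replicates 2 and 8 MALAT1 (−1.07 and −1.31) and KCNQ1OT1 (−0.63 and −0.68) were below their own means. NEAT1 (−0.10 and 0.21) and TUG1 (0.05 and 0.04) lay closer to theirs. In replicate 7 NEAT1 was at −0.60, against −0.03, 0.15 and −0.06 for MALAT1, KCNQ1OT1 and TUG1.

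**Figure D2:**
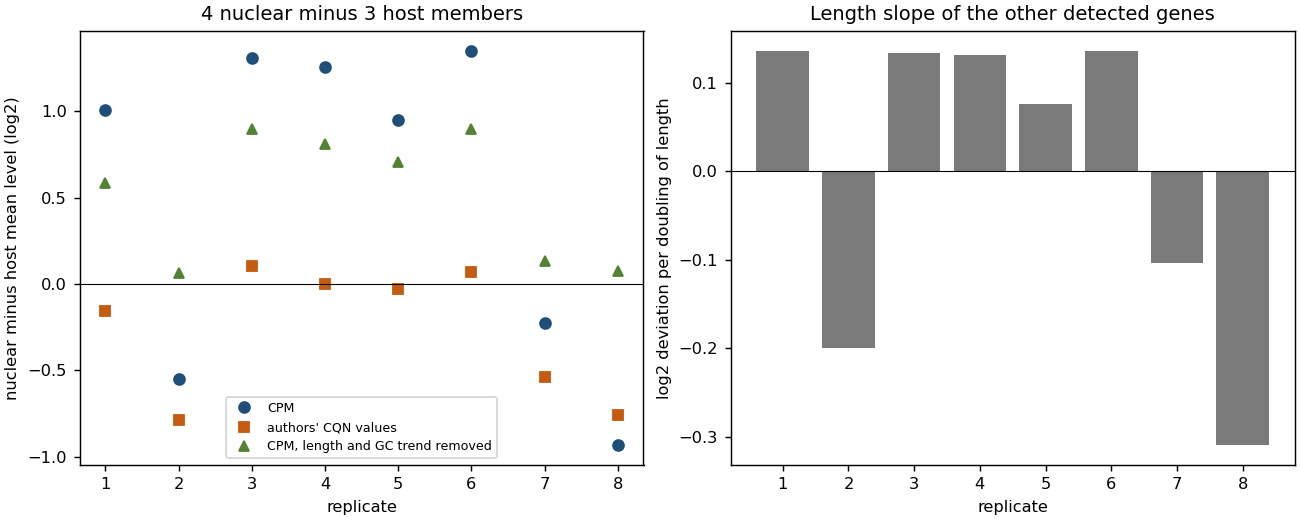
Left, mean log2 level of 4 nuclear members minus that of 3 snoRNA hosts in each replicate (horizontal axis) on CPM, the authors' CQN values and CPM with the length and GC trend removed. Right, slope of the detected genes other than the members on transcript length in the same libraries (log2 per doubling). Replicates 2, 7 and 8, with slopes of −0.200, −0.103 and −0.309, also have the lowest differences on each scale.

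By library order on CPM, 3 of 4 nuclear members (all but NEAT1) had replicates 2, 7 and 8 as their lowest 3, beside 27.3% of detected genes. All 3 hosts had them as their highest 3, beside 30.9% of detected genes. On CQN these counts were 1 of 4 beside 14.5% and 1 of 3 beside 17.3%. Replicate 8 alone was the lowest library for the same 3 nuclear members on CPM, beside 31.1% of detected genes, and for MALAT1 and KCNQ1OT1 on CQN, beside 23.5%. It was the highest library for 2 of 3 hosts (GAS5 and SNHG5) on CPM, beside 36% of detected genes, and for 1 of 3 on CQN, beside 27.5%.

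**Figure D3:**
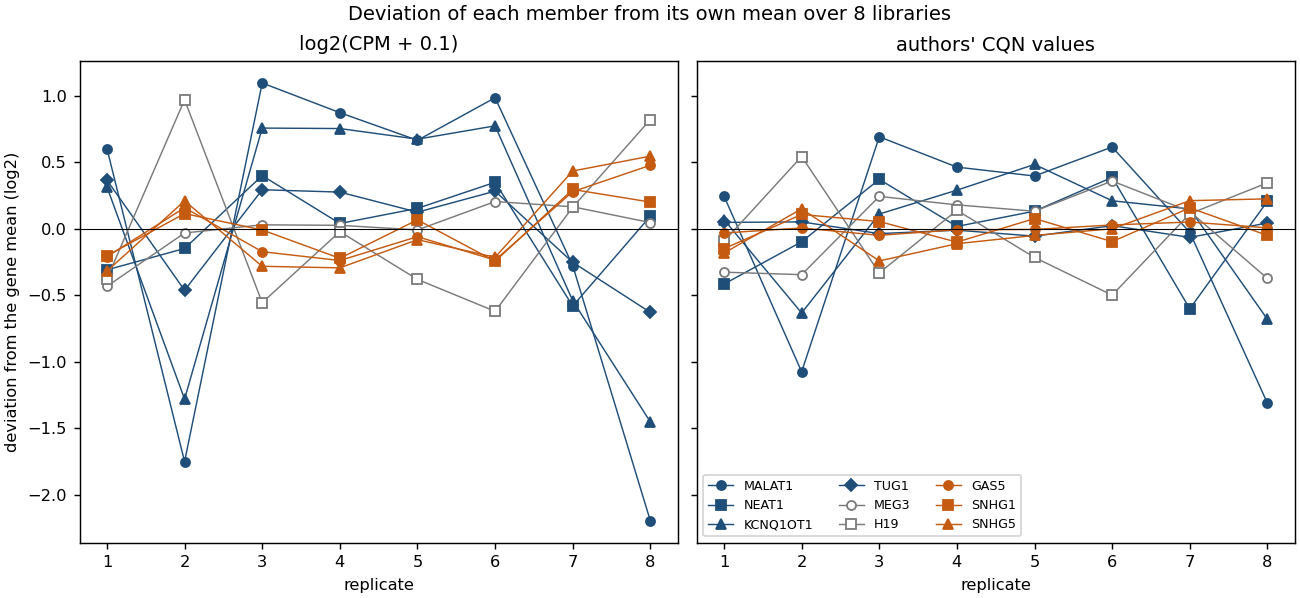
Deviation of each member from its own mean (vertical axis, log2) in replicates 1 to 8 on log2(CPM + 0.1) at the left and the authors' CQN values at the right, with nuclear members in blue, imprinted in grey and hosts in orange. MALAT1 and KCNQ1OT1 are low in replicates 2 and 8 on both scales, whereas TUG1 and GAS5 are nearly flat on CQN, with ranges of 1.08-fold and 1.07-fold.

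Levels were ordered between genes on CQN and on CPM per kilobase of the annotated form, since CPM alone favours long transcripts. The gene lengths behind the CQN values were not stated, so the CQN order may not be adjusted for the lengths used here. On CQN the order was MALAT1 (10.16 ± 0.77), NEAT1 (8.47 ± 0.36), GAS5 (7.84 ± 0.03), SNHG5 (7.57 ± 0.18), SNHG1 (7.46 ± 0.11), TUG1 (7.43 ± 0.05), MEG3 (3.77 ± 0.30), KCNQ1OT1 (3.39 ± 0.42) and H19 (2.09 ± 0.35), as mean ± SD over 8 libraries. SNHG1 was above TUG1 in 4 of 8 libraries and below SNHG5 in 6 of 8, so these neighbours did not differ beyond their spread. Each of the other adjacent pairs held its order on CQN in at least 7 of 8 libraries. Per kilobase, SNHG5 (219 ± 55.9 CPM per kb), MALAT1 (218 ± 126) and GAS5 (192 ± 38.5) came first and changed places between libraries. SNHG1 (84.1 ± 11.98), NEAT1 (65.6 ± 14.3), TUG1 (27.0 ± 6.66), MEG3 (4.12 ± 0.513), H19 (0.854 ± 0.417) and KCNQ1OT1 (0.133 ± 0.068) followed. Some pairs turned with the scale. H19 was above KCNQ1OT1 in 8 of 8 libraries per kilobase and below it in 8 of 8 on CQN. NEAT1 was above GAS5 in 7 of 8 libraries on CQN, but its mean per kilobase was lower. Per-kilobase levels of the hosts rest on the form chosen, because 91 forms are annotated for GAS5, 80 for SNHG1 and 89 for SNHG5. The KCNQ1OT1 level per kilobase rests on 59457 of 91667 annotated nucleotides, those inside the deposited interval.

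**Figure D4:**
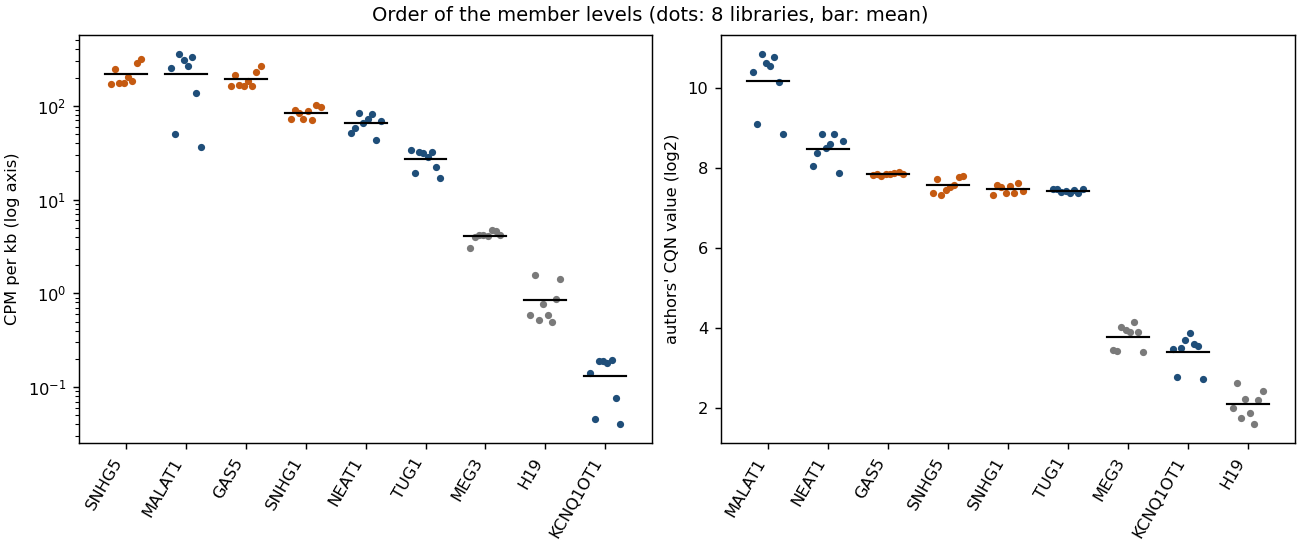
Members ordered by mean level, as CPM per kb on a log axis at the left and as the authors' CQN value (log2) at the right. Dots are the 8 libraries and bars their means; MALAT1 leads on CQN at 10.16, and SNHG5, MALAT1 and GAS5 overlap at the top per kb.

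The introns of the 3 hosts contain 20 listed box C/D snoRNA rows, 10 in GAS5, 8 in SNHG1 and 2 in SNHG5, all of them in introns of the forms used. Box C/D snoRNAs are defined by a C box near the 5′ end and a D box near the 3′ end. They are shorter than most fragments of a polyadenylated library and have no poly(A) tail, so reads there may come from unspliced host RNA, from snoRNA or from other sources, and the counts do not tell these apart. SNORD80 from GAS5 and SNORD31 from SNHG1 are shown as examples of well-counted rows that hold both TGATGA and CTGA. SNORD47 from GAS5 and SNORD22 from SNHG1 are also well counted (4.06 and 2.66 CPM) but hold no TGATGA. Capitals mark the first TGATGA and the last CTGA in the rows shown.
SNORD80, chr1:173833971-173834041, minus strand: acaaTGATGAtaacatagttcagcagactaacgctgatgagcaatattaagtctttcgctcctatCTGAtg
SNORD31, chr11:62620798-62620865, minus strand: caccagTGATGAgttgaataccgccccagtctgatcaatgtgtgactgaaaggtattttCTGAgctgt
Both letter groups were present, on the transcript strand, in 13 of the 20 rows (65%) and in 77.7% of the 220 listed SNORD rows with a strand.

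SNORD80 was the most counted of the 20, at 5.87 ± 1.08 CPM (SD, n = 8), followed by SNORD47 from GAS5 at 4.06 ± 1.45 CPM. Summed per host, the SNHG1 rows stood at 10.98, 7.27, 13.2, 11.6, 12.4, 13.0, 10.5 and 5.49 CPM in replicates 1 to 8. They were lowest in replicates 8 and 2, where the SNHG1 row itself was among its highest. As a share of the SNHG1 level they were 16.6% in replicate 6 and 5.17% in replicate 8. The GAS5 rows were 9.69% of the GAS5 level in replicate 2, 10.3% in replicate 8 and up to 17.0% in replicate 3. The SNHG5 rows were 0.799% to 1.75% of SNHG5 and rested on 46 to 154 counts per library. Over all 3 hosts the snoRNA rows were 9.64%, 6.28%, 11.7%, 10.2%, 10.6%, 10.96%, 8.49% and 5.84% of the host level in replicates 1 to 8, again with replicates 8, 2 and 7 lowest.

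Hosts differed in this respect: the SNHG5 rows were highest in replicates 7 and 8 (1.88 and 1.68 CPM), as SNHG5 itself was, and the GAS5 rows were highest in replicate 7 (20.7 CPM) and lowest in replicate 2 (12.9 CPM). Of the 20 rows, 11 (55%) were lowest in replicate 8. With at least 10 counts in every library, the same held for 8 of 16 rows in the hosts (50%) and 34 of 104 snoRNA rows elsewhere (32.7%). The sum over all 348 snoRNA rows outside the members was steadier, at 112 to 129 CPM. Whether counts of the host rows include reads in their introns was not stated. At GAS5, the uncharacterised gene LOC100506046 also overlaps and had 86 to 150 counts, at most a small share of the 7044 to 14068 counts of GAS5.

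The other snoRNA host genes give the background for GAS5, SNHG1 and SNHG5. Of 14 in the table, 13 were detected, the exception being SNHG9 with a mean of 1.25 CPM. The highest were ZNFX1-AS1 (now ZFAS1) at 59.8 ± 12.4 CPM, SNHG6 at 49.1 ± 16.6 CPM and SNHG3 at 48.4 ± 4.02 CPM. Of the 13, 6 ranged 2-fold or more, beside 31% of detected genes. Their median range was 1.97-fold, against 1.70-fold over all detected genes. SNHG11 (2.37-fold) and SNHG10 (2.27-fold) ranged furthest. Replicates 2, 7 and 8 were the highest 3 libraries for 10 of the 13 on CPM, beside 30.9% of detected genes, and for 3 on CQN, beside 17.3%. On CQN 0 of the 13 ranged 2-fold, beside 10.6% of detected genes. Without replicates 2, 7 and 8, 0 of the 13 ranged 2-fold on CPM, and the share of detected genes was not computed there.

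Of 12 other long noncoding RNA genes in the table, not chosen for snoRNAs, 9 were detected, led by OIP5-AS1 (also called cyrano) at 52.0 ± 3.96 CPM, MIR22HG at 35.4 ± 5.22 CPM and HCG18 at 24.9 ± 3.99 CPM. LINC00152 (now CYTOR) and CRNDE ranged furthest, 2.15-fold and 1.93-fold on CPM and 1.31-fold and 1.33-fold on CQN. MIAT (mean 1.05 CPM), HOTAIR (0.0170 CPM) and HOTAIRM1 (0 counts) were not detected. For HOTAIRM1, 0 counts allow up to 0.0865 CPM (3 steps of 2 counts) in the smallest library.

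Genes for proteins known to work with these RNAs were measured as RNA only. All 10 listed paraspeckle protein genes were detected, with a median range of 1.26-fold on CPM. Among them were HNRNPK (901 ± 76.0 CPM) and NONO (481 ± 30.6 CPM), RNA-binding proteins of which NONO is a core paraspeckle component. The furthest ranges were those of RBM14 (1.75-fold on CPM, 2.03-fold on CQN) and NUDT21 (1.74-fold and 1.15-fold). Thus 0 of 10 ranged 2-fold on CPM, beside 31% of detected genes, and 1 on CQN, beside 10.6%.

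All 7 listed nuclear speckle genes were detected, led by SRRM2 (616 ± 149 CPM), the splicing factor gene SRSF3 (467 ± 63.8 CPM) and SON (426 ± 145 CPM). SRRM2 and SON code for the large proteins that form the speckle core. On CPM they ranged 2.17-fold and 2.74-fold and were lowest in replicate 8, as MALAT1 was. On CQN the ranges were 1.66-fold and 1.47-fold. Their long transcripts (9044 and 8393 nucleotides) are close in length to MALAT1.

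RNase P cuts the 5′ ends of tRNAs and ELAC2 their 3′ ends, and both act on the MALAT1 small RNA. All 10 genes listed for RNase P subunits and ELAC2 were detected, led by ELAC2 (130 ± 15.4 CPM), RPP30 (68.9 ± 9.94 CPM) and POP4 (41.1 ± 8.07 CPM). POP7 (2.15-fold on CPM, 1.34-fold on CQN) and POP5 (2.08-fold and 1.24-fold) were the 2 that ranged 2-fold on CPM, beside 31% of detected genes. On CQN it was RPP30 (2.70-fold), beside 10.6%. Replicate 8 was the highest library for 8 of the 10 on CPM, beside 36% of detected genes, and for 4 on CQN, beside 27.5%.

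All 8 listed snoRNP protein genes were detected, led by NOP56 (252 ± 45.4 CPM), FBL (224 ± 49.8 CPM; fibrillarin, the methyltransferase of box C/D particles) and NHP2L1 (178 ± 43.7 CPM; now SNU13). NOP10 (2.14-fold) and NHP2 (2.04-fold) ranged furthest on CPM. On CQN 0 of the 8 ranged 2-fold, beside 10.6% of detected genes. Replicate 8 was the highest for 5 of 8 on CPM, beside 36% of detected genes, and for 2 on CQN, beside 27.5%.

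All 10 listed nonsense-mediated decay genes were detected, led by SMG5 (198 ± 22.1 CPM), SMG1 (191 ± 81.5 CPM; the kinase that acts on UPF1) and the helicase gene UPF1 (169 ± 22.0 CPM). SMG1 has near-identical pseudogene copies that make its counts uncertain. On CPM SMG1 ranged 3.61-fold and UPF2 2.07-fold, both lowest in replicate 8, against 1.40-fold and 1.28-fold on CQN.

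All 13 listed coding genes with 5′ TOP messages were detected, led by the elongation factor genes EEF1A1 (8690 ± 846 CPM) and EEF2 (1926 ± 350 CPM) and by TPT1 (1786 ± 390 CPM). On CPM 4 of the 13 ranged 2-fold, beside 31% of detected genes, with EEF1D (2.42-fold) and EIF3F (2.28-fold) furthest. On CQN 0 did, beside 10.6%. Replicate 8 was highest for 9 of the 13 on CPM, beside 36% of detected genes, and for 6 on CQN, beside 27.5%. Without replicates 2, 7 and 8, 0 genes of the imprinted neighbour, other long noncoding, paraspeckle, speckle, RNase P, snoRNP, decay and TOP lists ranged 2-fold on CPM. Leaving out libraries can only narrow a range or keep it. The share over all detected genes was not computed, so this sets no list apart.

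The genes with the pattern most like each member were taken by Pearson r of log2(CPM + 1) over the 8 libraries, given as a description, since all genes share these libraries and their slopes on length and GC content. For MALAT1 they were HELLS (r = 0.999), SEC24A (0.998) and ERN1 (0.997), and these kept r of 0.986, 0.989 and 0.995 on CQN. For TUG1 they were PCNX, MYO10 and RB1, with r of 0.9998, 0.999 and 0.999 on CPM and 0.51, 0.37 and 0.03 on CQN. GAS5 was most like RPL26L1, GSTO1 and RPS27A (each 0.998 on CPM), which had 0.67, 0.51 and 0.56 on CQN. RPS27A codes for a fusion of ubiquitin and a ribosomal protein and has processed pseudogenes, so its counts are less certain.

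KCNQ1OT1 was most like ANKRD36 (0.995), LOC100131257 (0.994) and ASTN2 (0.993), with 0.87, 0.87 and 0.90 on CQN. H19 was most like REPIN1 (0.988), LLGL1 and ACCN3 (both 0.987), with −0.57, 0.83 and 0.83 on CQN. SNHG1 was most like PWP2 (0.998), SNHG8 (0.988), itself a snoRNA host, and MRPS9 (0.987), with 0.62, 0.81 and 0.96 on CQN. SNHG5 was most like OSGIN1 (0.993), MRPL20 (0.992) and METRNL (0.991), with 0.24, 0.32 and −0.26 on CQN. NEAT1 and MEG3 had few close matches: APOL4 (0.964), TBC1D8 (0.943) and CNTNAP3B (0.911) for NEAT1, and SEPT7P2 (0.932), ZNF793 (0.922) and NUDT3 (0.904) for MEG3. On CQN these were 0.94, 0.93 and 0.25 for NEAT1 and 0.23, −0.60 and 0.62 for MEG3. ANKRD36, CNTNAP3B and SEPT7P2 have near-identical copies or are pseudogenes, so their counts are uncertain. An r above 0.95 was reached by 1685 of 11975 detected genes for MALAT1, 1893 for TUG1 and 1092 for GAS5, and by 1 for NEAT1 and 0 for MEG3. On CQN these numbers were 476 for MALAT1, 45 for TUG1 and 1 for GAS5.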

How the data were processed

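Polyadenylated RNA of 8 hCMEC/D3 samples was sequenced from TruSeq (kit v2) libraries, per the labels' protocols, and gave 1 table. The authors deposited raw counts per gene, per the file headers, and CQN values, which are log2 levels made by the authors per the file headers and given for 13962 genes. The submitters' processing notes name CASAVA 1.9, TopHat2 2.0.6, HTSeq and build hg19 (GRCh37). Use of strand, the gene annotation, the CQN settings and the reason for even counts are not given in the sources used here.

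The deposited counts were scaled to CPM with TMM library sizes (edgeR 4.0.16, R 4.3.3). Ratios used log2(CPM + 0.1). Slopes and trends used log2(CPM + 1) of detected genes on the length and GC content of 1 transcript per gene from GENCODE 44 on GRCh37. For the members 1 transcript form each was chosen by hand, and single-exon forms were clipped to the deposited interval. Table starts count from 0 and are printed 1-based. Sequences were read from the GRCh37 genome at these coordinates. List symbols without a row are not analysed here. Columns were matched by replicate number in the titles, and 0 other columns of values were present.

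The members, lists and settings were chosen with earlier results of these data known. Text names the 9 members, the highest 3 and the up to 2 furthest-ranging genes of each list, undetected members where 5 or fewer, and the 3 genes most like each member. A list gene that this rule names is not reported here. Some list genes beyond this rule (IGF2, CDKN1C, DLK1) and the snoRNAs were named after their values were seen. With 1 group there was no test between groups. Alternatives were total counts, DESeq2 1.42.0 size factors, other pseudocounts and thresholds, CQN, trend removal and leaving out libraries; the lists without replicates 2, 7 and 8 and the filter on snoRNA rows were added after seeing the data.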

Additional observations from a re-analysis of the deposited data

Results flagged for a closer look

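Of 40 values examined for a library far from the others, 2 were found, and chance gives about 1 in 20. MEG3 in replicate 1, at 4.84 CPM, lay far below the other 7 libraries. The log2 ratio of GAS5 to SNHG1 in replicate 8, at 0.65 on CPM, lay far above the other 7. Neither was found on CQN, where replicate 8 was lowest for MEG3 and replicate 6 highest for the ratio.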

How the results depend on the processing

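The mean difference of nuclear minus host members was 0.52 on log2 CPM and turned to −0.26 on the authors' CQN values. It kept its sign with total counts, DESeq2 size factors and a pseudocount of 1 CPM, and was 0.73 without replicate 8, 0.67 without replicate 2 and 1.17 without replicates 2, 7 and 8. Trend removal leaves the mean as it is by construction. Its span of 2.28 was 0.89 on CQN, 0.84 with the length and GC trend removed and 0.40 without replicates 2, 7 and 8. The number of members ranging 2-fold was 3, against 4 with total counts, 0 without those 3 libraries and 8 at a 1.5-fold limit. The number of other host genes ranging 2-fold was 6, against 0 on CQN, 3 without replicate 8, 5 without replicate 2, 0 without replicates 2, 7 and 8, and 12 at 1.5-fold. The share of all detected genes was not computed at 1.5-fold or with libraries left out. With all libraries 31% of detected genes ranged 2-fold on CPM and 10.6% on CQN, and their median range was 1.70-fold on CPM. Hosts highest in replicate 8 went from 2 to 1 on CQN. The cause was not tested. All 9 members stayed detected under every filter and scaling run. Depth limits H19 most, with as few as 82 counts. No paired analysis was possible because the 8 libraries form 1 group.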
